A study of Mus musculus with 2 samples.

Results

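The Xlr3, Xlr4 and Xlr5 genes are small X-linked genes of the mouse that encode chromatin-associated proteins related to SYCP3, a lateral element protein of the synaptonemal complex. The family was taken here as its 9 protein-coding copies, Xlr3a, Xlr3b, Xlr3c, Xlr4a, Xlr4b, Xlr4c, Xlr5a, Xlr5b and Xlr5c. All 9 were found by Ensembl identifier and mouse symbol among the 25749 genes of the files. They were singled out because their levels had already been seen to differ between these libraries, so every level, fold and count below describes the libraries and is no test.

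E14.1, an embryonic stem cell line of the mouse, was sequenced in 2 RNA libraries, 1 with T136A AHCY and 1 with WT AHCY. AHCY is the enzyme that hydrolyses S-adenosylhomocysteine, the by-product of methylation by S-adenosylmethionine, and T136A replaces its threonine at the numbered position by alanine. The sources used here do not say how the T136A cells were made, whether they are 1 clone, or whether the endogenous gene is intact. Implied totals were 18396840 reads for T136A and 17506154 reads for WT, and with 1 library per genotype no spread between replicates could be measured.

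Family members were first described as transcripts of lymphoid cells, and the name stands for X-linked, lymphocyte-regulated. Members of the wider superfamily are also transcribed in germ cells, and Xlr3b, Xlr4b and Xlr4c are known as imprinted genes in the mouse brain, where the maternal X chromosome provides most of the transcript. The X chromosome carries them as a cluster of recent duplicates, so the copies within a subfamily are near-identical and a short read can match several of them.

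In GENCODE M21, on the GRCm38 build, the 9 genes lie between positions 73074345 and 73292976 of the X chromosome, a stretch of 218.632 kb. Along the chromosome the order is Xlr4a, Xlr3a, Xlr5a, Xlr5b, Xlr3b, Xlr4b, Xlr4c, Xlr3c and Xlr5c. Xlr3b, Xlr4b and Xlr5b are on the plus strand and the other 6 on the minus strand. The Xlr3 genes are annotated as Xlr3a (ENSMUSG00000057836) from 73086293 to 73097095, Xlr3b (ENSMUSG00000073125) from 73192207 to 73202930 and Xlr3c (ENSMUSG00000058147) from 73254540 to 73265390. The Xlr4 genes are Xlr4a (ENSMUSG00000079845) from 73074345 to 73082478, Xlr4b (ENSMUSG00000067768) from 73214333 to 73222453 and Xlr4c (ENSMUSG00000031362) from 73233688 to 73243130. The Xlr5 genes are Xlr5a (ENSMUSG00000058328) from 73107635 to 73292976, Xlr5b (ENSMUSG00000072479) from 73148796 to 73158872 and Xlr5c (ENSMUSG00000067764) from 73282896 to 73292976, and the long span of Xlr5a comes from 1 transcript that starts at an Xlr5c exon. Coding sequences were 226 codons long, without the stop codon, in each Xlr3 copy, 215 in each Xlr4 copy and 236 in each Xlr5 copy. Nucleotide identity of the coding sequences was 98.2 to 99.4% among the Xlr3 copies, 98.9 to 99.5% among the Xlr4 copies and 99.2 to 99.4% among the Xlr5 copies. Between subfamilies it was 60.8 to 61.2% for Xlr3 and Xlr4, 55.8 to 56.9% for Xlr3 and Xlr5 and 56.7 to 58.3% for Xlr4 and Xlr5. Identity to Sycp3 was of the same order, at 59.0 to 59.5% for Xlr3, 60.3 to 61.7% for Xlr4 and 56.4 to 56.8% for Xlr5.

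Because the 9 genes were higher together in the T136A library, as given below, the bases just before their transcription starts are shown for 4 of them. These are Xlr3a and Xlr3c, the Xlr3 copies with the smallest and the largest fold, Xlr4a, and Xlr5a, which had no read in WT. Each is the window of 250 bases that ends just before the gene's RefSeq start in GRCm38.p6, read 5′ to 3′ on the gene's own strand, minus for all 4. They lie at chrX:73097096-73097345 for Xlr3a, chrX:73265391-73265640 for Xlr3c, chrX:73082508-73082757 for Xlr4a and chrX:73117703-73117952 for Xlr5a. Capitals mark CAGCCAATCAGAGA, the longest run present in all 6 Xlr3 and Xlr4 windows, which includes a CCAAT box, and in Xlr5a CTTCCGGAAG, the longest run in the Xlr5a and Xlr5b windows that reads alike on both strands.
Xlr3a: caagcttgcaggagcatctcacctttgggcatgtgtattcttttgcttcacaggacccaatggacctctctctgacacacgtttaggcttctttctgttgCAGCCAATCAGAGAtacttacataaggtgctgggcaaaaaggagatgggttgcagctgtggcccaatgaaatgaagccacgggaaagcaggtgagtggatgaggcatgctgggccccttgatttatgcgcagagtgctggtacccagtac
Xlr3c: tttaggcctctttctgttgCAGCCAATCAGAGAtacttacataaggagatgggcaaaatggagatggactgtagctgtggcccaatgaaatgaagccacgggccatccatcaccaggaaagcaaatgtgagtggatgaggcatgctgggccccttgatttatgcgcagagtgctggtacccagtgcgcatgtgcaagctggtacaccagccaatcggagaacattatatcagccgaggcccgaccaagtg
Xlr4a: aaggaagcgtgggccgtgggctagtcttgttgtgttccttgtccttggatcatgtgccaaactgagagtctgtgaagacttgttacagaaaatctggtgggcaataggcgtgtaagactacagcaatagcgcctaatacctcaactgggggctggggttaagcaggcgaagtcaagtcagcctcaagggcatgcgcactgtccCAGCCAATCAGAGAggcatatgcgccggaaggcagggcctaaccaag
Xlr5a: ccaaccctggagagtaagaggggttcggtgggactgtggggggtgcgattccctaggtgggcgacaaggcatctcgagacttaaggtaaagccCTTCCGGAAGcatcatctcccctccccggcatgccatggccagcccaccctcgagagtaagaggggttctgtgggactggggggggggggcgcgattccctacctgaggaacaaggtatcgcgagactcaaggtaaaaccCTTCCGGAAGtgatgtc

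The motifs were chosen after the windows had been read, and a match is a description, not a bound site. Searched on both strands, CAGCCAATCAGAGA was in all 6 Xlr3 and Xlr4 windows, by the way it was chosen, and in no Xlr5 window, against 0.0487% of the 32851 promoter windows of the same length in the RefSeq table. Its first base lay 150 bases before the start in Xlr3a, 24 in Xlr3b, 231 in Xlr3c, 47 in Xlr4a, 40 in Xlr4b and 17 in Xlr4c. CTTCCGGAAG was in the Xlr5a and Xlr5b windows, with 2 copies in each, against 0.119% of all windows. The shorter CCAAT, which CAGCCAATCAGAGA contains, was in 7 member windows and 33.8% of all windows, and CCGGAAG, which CTTCCGGAAG contains on each strand, in 4 and 6.91%. CACGTG, an E-box, was in none of the 9 windows, against 6.02% of all windows. TTCCCGC, an E2F-type motif, was also in none, against 3.82%. The copies of a subfamily share these windows by descent, at 93.1 to 98.3% identity in Xlr3 and 98.2 to 99.1% in Xlr4. Their matches are therefore not independent occurrences. Within Xlr3 the matches are not all at the same site of the shared sequence. Xlr3a and Xlr3c match at a common site, where Xlr3b has a changed base and lacks the full run. Xlr3b matches at another site, nearer its start, where Xlr3c has a changed base and lacks the full run. Xlr5a and Xlr5b matched at 100% over 205 aligned bases, whereas the RefSeq start of Xlr5c lies at another exon and its window is not the matching sequence. CpG sites, where DNA methylation is placed, numbered 3, 6 and 6 in Xlr3a, Xlr3b and Xlr3c, 8, 8 and 5 in Xlr4a, Xlr4b and Xlr4c, and 12, 14 and 1 in Xlr5a, Xlr5b and Xlr5c, against a median of 6 over all windows.

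Levels are given in RPKM, in which a read number is divided by the exon length of its gene and the size of the library, and each was turned back into whole reads through the gene's exon length. The T136A library was higher for all 9 copies. The highest level in each library was that of an Xlr3 copy, Xlr3c in T136A and Xlr3a in WT. Xlr3c stood at 18.9 RPKM (551 reads) in T136A and 0.288 RPKM (8 reads) in WT. Xlr3a stood at 9.97 RPKM (742 reads) in T136A and 2.17 RPKM (154 reads) in WT. Xlr3b, 1 of the copies imprinted in brain, stood at 5.87 RPKM (408 reads) in T136A and 0.438 RPKM (29 reads) in WT. Per union exon length Xlr3c was above Xlr3a in T136A and below it in WT, but by reads Xlr3a was above Xlr3c in both libraries. Folds from the reads, with exact conditional binomial 95% intervals that cover counting error only, were 65.5 for Xlr3c (33.0 to 153), 4.58 for Xlr3a (3.85 to 5.49) and 13.4 for Xlr3b (9.18 to 20.2), and these intervals do not overlap.

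The Xlr4 copies were all higher in T136A too, at lower summed levels than Xlr3. Xlr4a had 8.29 RPKM (234 reads) in T136A and 1.15 RPKM (31 reads) in WT, a fold of 7.18 (4.93 to 10.8). Xlr4b had 4.40 RPKM (207 reads) in T136A and 0.245 RPKM (11 reads) in WT, a fold of 17.9 (9.80 to 36.4). Both Xlr4b and the next gene, Xlr4c, are imprinted in brain. Xlr4c had 1.75 RPKM (72 reads) in T136A and 0.0512 RPKM (2 reads) in WT, a fold of 34.3 (9.15 to 288). The 3 copies kept the order Xlr4a, Xlr4b, Xlr4c in both libraries, and their fold intervals overlap between neighbours in this order.

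Xlr5 was the subfamily with almost no signal in WT, where 1 read was recovered over its 3 copies. Xlr5c had 4.18 RPKM (128 reads) in T136A and 0.0343 RPKM (1 read) in WT, a fold of 122 with an interval of 21.5 to 4848. Xlr5a had 3.69 RPKM (125 reads) in T136A and was listed at 0 in WT. Xlr5b had 2.34 RPKM (75 reads) in T136A and was also listed at 0 in WT. With the WT library set to 3 reads, the limit that a count of 0 allows (0.0930 RPKM for Xlr5a and 0.0983 RPKM for Xlr5b), Xlr5a was at least 39.6-fold higher and Xlr5b at least 23.8-fold higher in T136A. In bulk RNA, more cells with the transcript and more transcript per cell cannot be told apart, so these levels do not say whether all T136A cells or a few of them carried it.

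**Figure D1:**
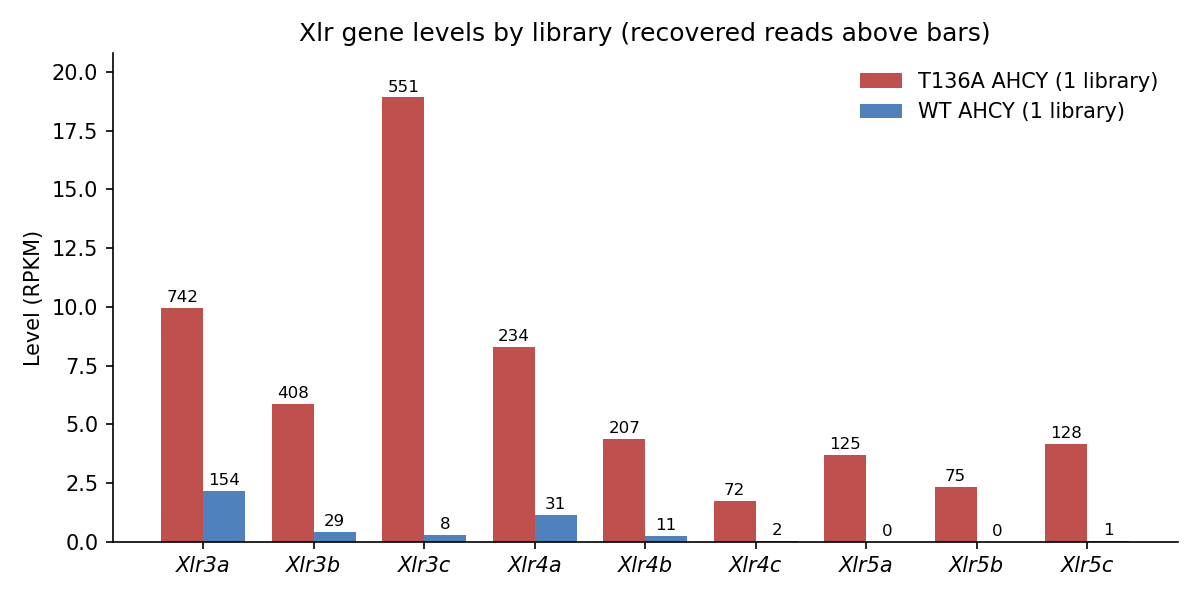
Level in RPKM (vertical axis) of each of the 9 genes in the T136A library (left bar of each pair) and the WT library (right bar), 1 library each, with the recovered reads written above the bars. T136A bars run from 1.75 RPKM for Xlr4c to 18.9 RPKM for Xlr3c, and the highest WT bar is Xlr3a at 2.17 RPKM.

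Within the T136A library the levels ran in the order Xlr3c, Xlr3a, Xlr4a, Xlr3b, Xlr4b, Xlr5c, Xlr5a, Xlr5b and Xlr4c. With exact Poisson 95% intervals, which cover counting error only, the neighbours that overlap in this order are Xlr3a (9.27 to 10.7 RPKM) with Xlr4a (7.26 to 9.42), Xlr4b (3.82 to 5.04) with Xlr5c (3.49 to 4.97), Xlr5c with Xlr5a (3.07 to 4.39), and Xlr5b (1.84 to 2.93) with Xlr4c (1.37 to 2.21). Within WT the order was Xlr3a, Xlr4a, Xlr3b, Xlr3c, Xlr4b, Xlr4c and Xlr5c, with Xlr5a and Xlr5b at 0, and only Xlr3a (1.84 to 2.55) with Xlr4a (0.784 to 1.64) and Xlr4a with Xlr3b (0.293 to 0.629) were neighbours whose intervals were apart. In the T136A library 88.0% of all genes in the files had a lower level than Xlr3c and 60.4% a lower level than Xlr4c. In WT 62.5% were below Xlr3a and 43.4% below Xlr3c. Comparing copies per length has a limit, because the exon length of Xlr3a (4045 bases) and Xlr3b (3780) includes transcripts with retained introns and that of Xlr3c (1584) does not, and the order of Xlr3c and Xlr3a in T136A turns when reads are compared. The longest protein-coding transcripts of the 3 are alike, at 1645, 1564 and 1584 bases.

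On the log2 scale with 1 RPKM added to each level, which shrinks the ratios of weak genes, the values were 1.79, 2.26 and 3.95 for Xlr3a, Xlr3b and Xlr3c, 2.11, 2.12 and 1.39 for Xlr4a, Xlr4b and Xlr4c, and 2.23, 1.74 and 2.32 for Xlr5a, Xlr5b and Xlr5c. All 9 passed the minimum of 1 RPKM in at least 1 library and were at least 2-fold higher on this scale, where 3.13% of the 12320 genes that passed were at least 2-fold higher, and 0 were at least 2-fold lower, where 3.1% of all genes were. Nothing is read from that contrast, since the family was chosen on it. Only Xlr3a and Xlr4a reached 1 RPKM in WT. The other 7 entered through the T136A library and so had to be higher there. Among genes that entered in that way, 27.2% of 629 were at least 2-fold higher. Ranked by the log2 ratio among the 12320 genes, Xlr3c was 2, Xlr5c 22, Xlr3b 28, Xlr5a 31, Xlr4b 38, Xlr4a 41, Xlr3a 70, Xlr5b 79 and Xlr4c 149.

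**Figure D2:**
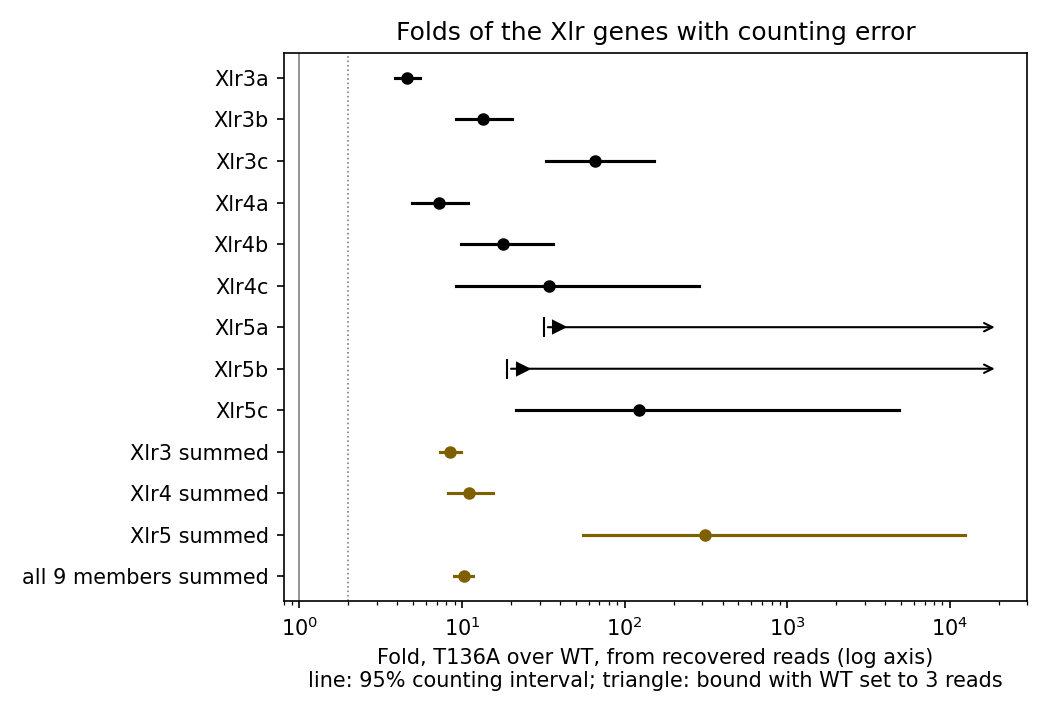
Fold of T136A over WT on a log axis for the 9 genes (black) and for the reads summed over each subfamily and over all 9 (brown). Points are folds with 95% counting intervals as lines. Triangles are folds with the WT library set to 3 reads, and the intervals of those genes start below them. Every interval lies above the dotted line at 2, the lowest being that of Xlr3a at 3.85 to 5.49.

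Reads summed over copies do not depend on how counted reads were divided among the copies, while RPKM sums do, because the copies have unlike exon lengths. Xlr3 gave 34.7 RPKM (1701 reads) in T136A and 2.90 RPKM (191 reads) in WT, a read fold of 8.47 (7.29 to 9.89) and an RPKM ratio of 12.0. Xlr4 gave 14.4 RPKM (513 reads) in T136A and 1.45 RPKM (44 reads) in WT, a read fold of 11.1 (8.15 to 15.5) and an RPKM ratio of 9.95, so the order of Xlr3 and Xlr4 turns with the measure. Xlr5 gave 10.2 RPKM (328 reads) in T136A and 0.0343 RPKM (1 read) in WT, a read fold of 312 (55.6 to 12365). The Xlr5 interval lies above those of Xlr3 and Xlr4, which overlap each other. All 9 copies together gave 59.4 RPKM (2542 reads) in T136A and 4.39 RPKM (236 reads) in WT, a read fold of 10.2 (8.97 to 11.8) and an RPKM ratio of 13.5.

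The make-up of the family's reads differed between the libraries by more than counting error. Xlr3a alone held 29.2% of the family's reads in T136A (exact Clopper-Pearson 95% interval 27.4 to 31.0) and 65.3% in WT (58.8 to 71.3). Xlr5 copies together held 12.9% in T136A (11.6 to 14.3) and 0.424% in WT (0.0107 to 2.34). For Xlr4 the shares were 20.2% in T136A (18.6 to 21.8) and 18.6% in WT (13.9 to 24.2), with overlapping intervals. Inside Xlr3, Xlr3c held 32.4% of reads in T136A (30.2 to 34.7) and 4.19% in WT (1.83 to 8.09), while Xlr3a held 43.6% (41.2 to 46.0) and 80.6% (74.3 to 86.0). Xlr3b took 24.0% of the Xlr3 reads in T136A (22.0 to 26.1) and 15.2% in WT (10.4 to 21.1). Inside Xlr4, Xlr4a held 45.6% of reads in T136A and 70.5% in WT (54.8 to 83.2).

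**Figure D3:**
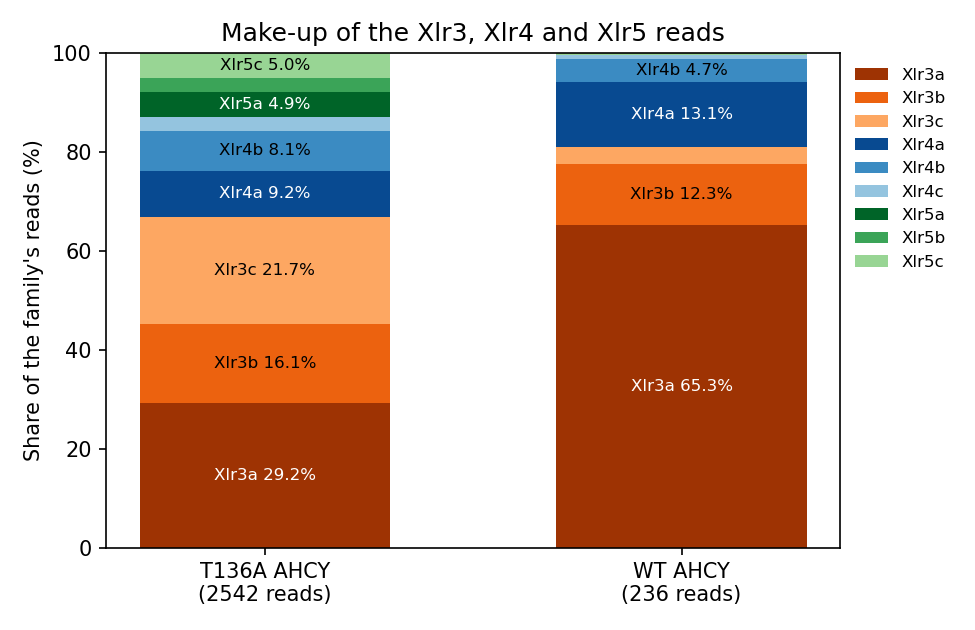
Share of the family's recovered reads (vertical axis, percent) held by each of the 9 genes in the T136A library (left, 2542 reads) and the WT library (right, 236 reads). Xlr3a takes 29.2% of the T136A bar and 65.3% of the WT bar, and the green Xlr5 segments make up 12.9% and 0.424%.

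How far single copies can be told apart was measured from the annotated transcripts. Of the distinct words of 50 bases in a copy's transcripts, the share found in no other annotated gene was 55.2% for Xlr3a, 43.4% for Xlr3b and 27.9% for Xlr3c. It was 22.3% for Xlr4a, 47.8% for Xlr4b and 36.2% for Xlr4c, and 15.8%, 9.27% and 15.6% for Xlr5a, Xlr5b and Xlr5c. No source used here gives the read length. At 36 bases the shares ran from 6.67% (Xlr5b) to 44.5% (Xlr3a), and at 75 bases from 13.9% (Xlr5b) to 67.0% (Xlr3a). No 50-base word of Xlr5 occurred in Xlr3 or Xlr4. Annotated genes other than the 9, Xlr pseudogenes among them, held 20.01 to 22.5% of the Xlr5 words and 8.19 to 18.4% of the Xlr3 and Xlr4 words. These words lay in 4 genes for each Xlr5 copy and in 2 for Xlr3c and each Xlr4 copy. For Xlr3a they lay in 5 genes and for Xlr3b in 243. Within Xlr3, 66.2% of the 50-base words of Xlr3c were also in Xlr3b and 43.7% in Xlr3a. What the counting did with reads that match several copies is not given, so the values of single copies are uncertain, and the sums are too if such reads were dropped or counted repeatedly. Xlr5a and Xlr5c also share 101 annotated exon bases on the same strand, 5.48% of the exon length of Xlr5a and 6.07% of that of Xlr5c.

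**Figure D4:**
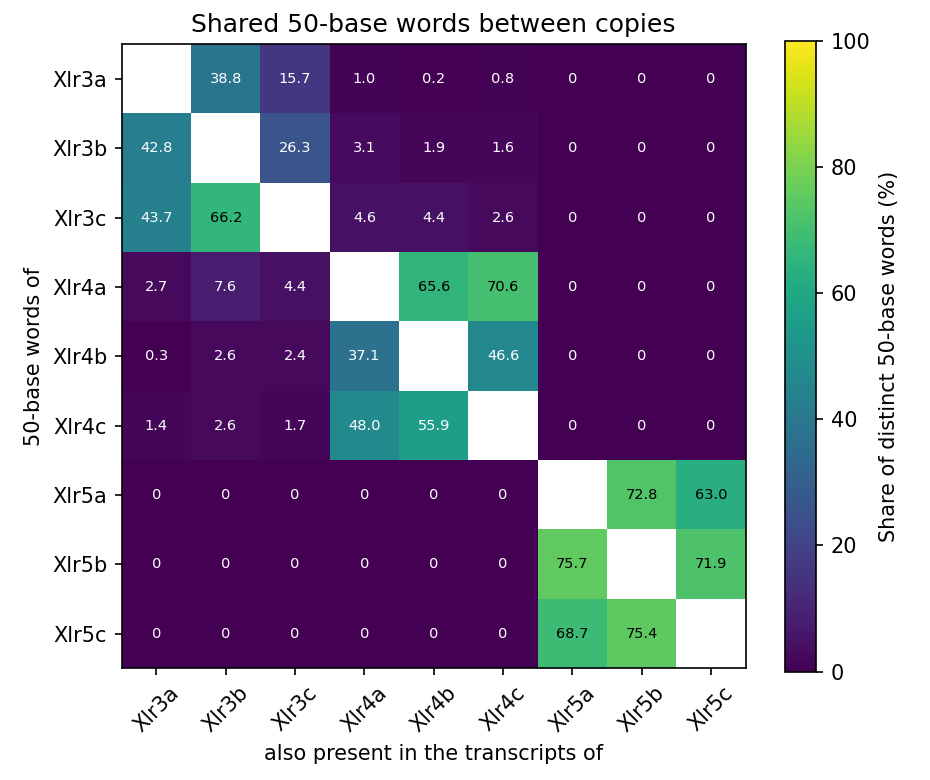
Share of the distinct 50-base words in the transcripts of each gene (rows) that also occur in the transcripts of each other gene (columns), in percent by colour and number. High values form 3 blocks along the diagonal, 1 per subfamily, and the Xlr5 rows are at 0 against Xlr3 and Xlr4.

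Relatives outside the cluster did not all follow. Xlr, the founding member of the family, elsewhere on the X chromosome, had 2.63 RPKM (113 reads) in T136A and 0.269 RPKM (11 reads) in WT, a fold of 9.78 (5.26 to 20.1). Sycp3, on chromosome 10, had 6.54 RPKM (152 reads) in T136A and 14.7 RPKM (326 reads) in WT, a fold of 0.444 (0.364 to 0.540). The superfamily's autosomal namesake was thus lower in T136A and its X-linked founder higher. An Xlr-like gene, 3830403N18Rik, stayed under 1 RPKM, with 18 reads in T136A and 3 in WT. The 5 Xlr pseudogenes in the files had 14 reads in T136A and 0 in WT.

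Genes that Sycp3 works with showed no common direction. Of 24 synaptonemal complex and meiotic chromosome genes found, 17 reached 1 RPKM, with a median log2 ratio of −0.15 against −0.03 over all genes. Of the 17, 2 were at least 2-fold higher, 1 at least 2-fold lower and 14 in between, where 3.13% and 3.1% of all genes were higher and lower. The higher ones were Rec114, a partner of the enzyme that makes meiotic breaks, at 24.1 RPKM in T136A and 9.71 in WT, and Rec8, the meiotic cohesin, at 20.9 RPKM in T136A and 8.83 in WT. Syce1, a central element protein, was at 45.6 RPKM in T136A and 23.4 in WT, short of the 2-fold line. At the low end, with Sycp3, were 4930447C04Rik, another central element gene also called Six6os1, at 1.27 RPKM in T136A and 2.63 in WT, and the recombinase Dmc1 at 0.670 RPKM in T136A and 1.38 in WT.

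Across the X chromosome, 50 of 459 genes that passed the minimum were at least 2-fold higher (10.9%) and 15 at least 2-fold lower (3.27%), while among autosomal genes the shares were 2.84% and 3.09%. Without the 9 copies, 9.11% of 450 X-linked genes were higher and 3.33% lower, with a median log2 ratio of 0.01. A list of X-linked reproductive families was chosen with these values known. It had 14 members above the minimum, 13 of them at least 2-fold higher and 10 of them over the minimum in T136A alone, with a median of 2.03. The median was 0.64 over all 35 members found, with no minimum, 0.76 with 5 RPKM added and 3.28 with 0.1 RPKM added. Mageb3, 1 of the 35, is annotated on chromosome 2 and stayed under the minimum. Rhox5, a reproductive homeobox gene, was at 155 RPKM in T136A and 16.5 in WT, Rhox1 at 12.1 and 0.776, and Rhox13 at 19.9 and 2.15. At the low end, with 1 RPKM added, were Mageb16 at 10.4 RPKM in T136A and 5.43 in WT, the ferritin-like gene Fthl17c at 1.02 and 0, and the transketolase-like gene Tktl1 at 1.32 and 0.0693. By reads the order was another, with folds of 19.0 for Tktl1 (6.21 to 94.9) and 1.91 for Mageb16. Rhox5 had 9.39, Rhox1 15.6 and Rhox13 9.23, while Fthl17c had 16 reads in T136A and 0 in WT.

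The cluster's surroundings were mixed. Within 1 Mb of it, 51 other genes were in the files and 27 reached 1 RPKM, with a median log2 ratio of 0.18. Of these, 4 were at least 2-fold higher, 1 at least 2-fold lower and 22 in between. Over all genes the shares were 3.13% higher and 3.1% lower. Pnma5, a paraneoplastic antigen family gene on the Xlr4a side, had 6.58 RPKM in T136A and 0.293 in WT, a fold of 22.5 (13.7 to 39.7). Tktl1 had a fold of 19.0 (6.21 to 94.9), Gm18336 of 3.71 (2.49 to 5.70) and Pdzd4 of 2.62 (2.30 to 2.98). Pnma5, Tktl1 and Gm18336 reached 1 RPKM in T136A alone and so had to be higher there. Renbp, a renin-binding protein gene, was the lower one, with 12.2 RPKM in T136A and 33.0 in WT. F8a, a single-exon gene that lies between Xlr4b and Xlr4c, had 1.97 RPKM (91 reads) in T136A and 1.62 RPKM (71 reads) in WT, a fold of 1.22 with an interval of 0.884 to 1.69 that includes 1. It was the sole other gene inside the cluster above the minimum. Its interval lies below those of all 9 copies, which were chosen as genes that differ. The other genes inside the cluster stayed under 1 RPKM. Gm14685 had 7 reads in T136A and 0 in WT, DXBay18 had 5 and 0, and Spin2d had 0 in both. The flanking genes in between ran from −0.62 for Irak1, a kinase of Toll-like receptor signalling, to 0.62 for Nsdhl, an enzyme of cholesterol synthesis.

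**Figure D5:**
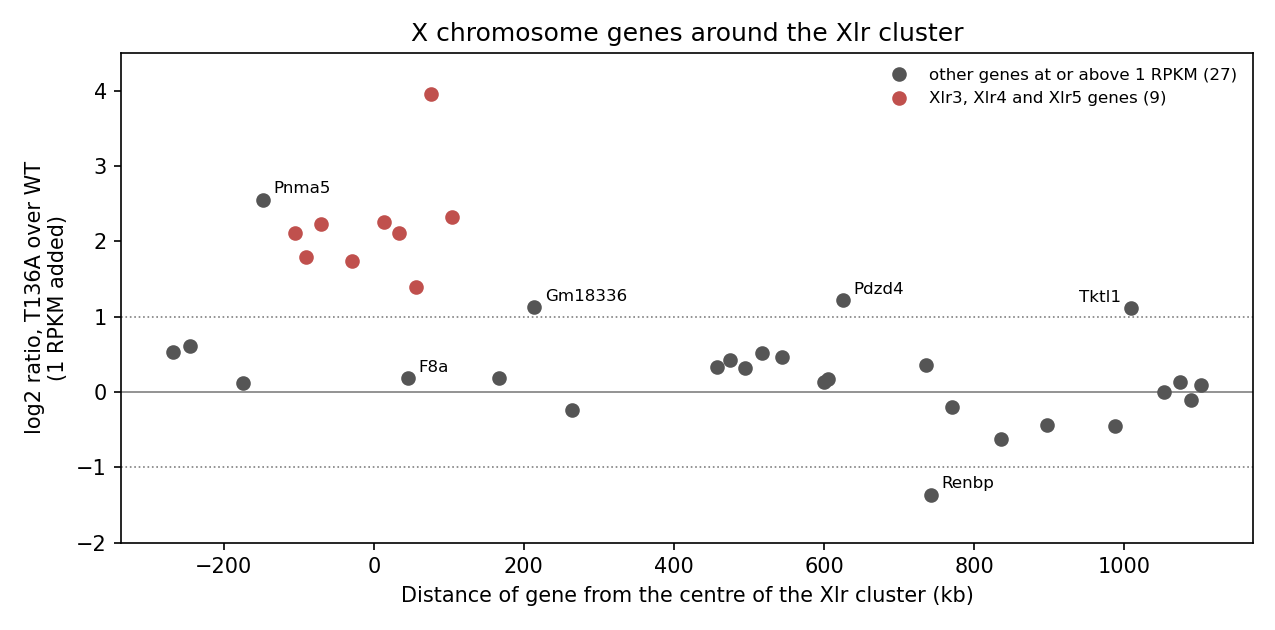
The log2 ratio of T136A over WT with 1 RPKM added (vertical axis) against distance in kb from the centre of the Xlr cluster, for the 9 copies (red, at the median of their exon midpoints) and 27 other genes within 1 Mb that reached 1 RPKM (grey, at the middle of their span). The copies run from 1.39 to 3.95, and F8a, among them, is at 0.18.

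Germline genes known to be silenced by promoter DNA methylation, 25 in all, had 20 members above the minimum. Of these, 9 were at least 2-fold higher, 0 at least 2-fold lower and 11 in between. Over all genes 3.13% were higher and 3.1% lower. Among the 20, 3 reached the minimum in T136A alone and so had to be higher. The median was 0.60, and it was 0.35 with 5 RPKM added and 1.17 with a minimum of 5 RPKM. Dazl, which binds transcripts in germ cells, was at 33.3 RPKM in T136A and 1.24 in WT, the testis tubulin Tuba3a at 172 and 17.0, and Fkbp6, an immunophilin of the piRNA pathway, at 17.95 and 1.56. The list's lowest were Mael, a piRNA factor, at 7.81 RPKM in T136A and 12.7 in WT, the histone reader Zcwpw1 at 1.71 and 3.19, and Taf7l at 1.09 and 1.76. Of 32 DNA methylation and silencing genes above the minimum, 2 were at least 2-fold higher, 0 lower and 30 in between, with a median of 0.03. These counts stand beside the same shares of all genes, 3.13% and 3.1%. The higher ones were the de novo methyltransferase Dnmt3b, at 8.45 RPKM in T136A and 3.48 in WT, and Zfp57, which guards imprints, at 105 and 38.4. At the low end were E2f6 at 5.79 RPKM in T136A and 10.5 in WT and the heterochromatin protein gene Cbx5 at 17.7 and 28.8. The histone methyltransferase Setdb1 came after them, at 16.3 and 10.5. These lists were drawn up with earlier results known, so their counts are no independent evidence about Xlr.

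By likeness of pattern, measured as Euclidean distance of log2 RPKM plus 1 over the 2 libraries among 12311 genes, the nearest to Xlr3c were Rhox1 (12.1 RPKM in T136A and 0.776 in WT, distance 0.759), 1700018B24Rik (10.7 and 0.0963, distance 0.799), Wfdc15a (9.80 and 0.468, distance 0.902), Fkbp6 (17.95 and 1.56, distance 0.995) and 4930591A17Rik (13.6 and 1.47, distance 1.04). With 2 libraries the measure says only that these genes had a similar level in each.

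Cell identity was checked with marker genes. The stem cell markers Pou5f1 (223 RPKM in T136A and 271 in WT), Sox2 (294 and 343) and Nanog (517 and 673) were high in both libraries. All 10 listed stem cell markers were above the minimum, with a median log2 ratio of −0.13. Of them, 2 were at least 2-fold higher, 0 at least 2-fold lower and 8 in between, where 3.13% and 3.1% of all genes were higher and lower. The higher ones were Utf1 (284 RPKM in T136A and 94.2 in WT) and Dppa4 (74.0 and 34.2), and Tdgf1 (263 and 161) and Zfp42 (397 and 252) came next. Although the family is named for lymphocytes, the lymphocyte marker Ptprc was at 0 in both libraries, and Cd3e was at 0.253 RPKM in T136A and 0.168 in WT. The 12 lymphocyte markers found summed to 19.0 RPKM in T136A and 30.3 RPKM in WT, of which the kinase gene Lck gave 12.7 and 25.4. Without Lck the sums were 6.37 RPKM in T136A and 4.82 in WT, mostly from Cd79b (3.65 and 2.83) and Cd2 (1.56 and 0.656). The part of lymphocytes in the Xlr levels was not tested. Markers of 2-cell-like cells, a rare state in such cultures, were higher in T136A in sum but mostly under 1 RPKM. Only Eif1a and Gm8300 reached that level, and Gm8300 (1.77 RPKM in T136A and 0 in WT) did so in T136A alone. Of 11 found, 1 was at 0 in T136A and 10 in WT, and without Eif1a they summed to 5.07 RPKM in T136A and 0 in WT. With Eif1a (78.5 and 58.3) the sums were 83.6 RPKM in T136A and 58.3 in WT, and the part of such cells in the Xlr levels was not tested. For germ cells, 8 of 9 markers were found, none at 0 in either library, with sums of 88.4 RPKM in T136A and 66.1 in WT. Of the 6 above the minimum, 2 (Dazl and Dnd1) were at least 2-fold higher, 0 at least 2-fold lower and 4 in between. Dazl differed most, while Ddx4, a germ cell helicase, was at 6.80 RPKM in T136A and 7.20 in WT. Prdm14 was lower in T136A, at 24.995 RPKM against 46.1 in WT, a fold of 0.542 (0.504 to 0.582). Without Prdm14 the germ cell sums were 63.4 RPKM in T136A and 19.97 in WT, of which Dazl gave 33.3 and 1.24. The 6 fibroblast markers found summed to 35.9 RPKM in T136A and 17.7 in WT, of which S100a6 gave 28.0 and 13.3. Without it the sums were 7.88 RPKM in T136A and 4.43 in WT, from Thy1 (5.32 and 2.50, a fold of 2.13 with an interval of 1.73 to 2.64), Pdgfrb (1.97 and 1.43) and weaker genes, with the collagen gene Col1a1 at 0.530 and 0.470 and Postn at 0 in WT. The 8 trophoblast markers found, none of them at 0, summed to 18.6 RPKM in T136A and 13.5 in WT, with Cdx2 at 0.0774 and 0.0253. The part of fibroblast, germ and trophoblast cells in the Xlr levels was not tested either. Ahcy itself was at 56.6 RPKM in T136A and 52.9 in WT, which does not check the labels, since a changed codon need not alter the level.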

How the data were processed

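The deposited values, 1 per Ensembl gene and library, were read as RPKM. The unit was settled from the values, since multiplying each by its union exon length in GENCODE M21 and 1 constant per library gave whole reads (tolerance 0.01) for 90.0% of positive values in T136A and 89.9% in WT. Per the submitters' processing notes, the authors used CASAVA 1.8 and the mm9 build, whereas the matching lengths belong to GRCm38. No source used here gives the aligner, counting rule, strand or read length. Trizol RNA was built into TruSeq libraries, per the labels' protocols.

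Symbols matched 25696 of 25749 identifiers. For 9 identifiers that shared a symbol, the one with the higher total was kept. Older symbols in the lists were matched through RefSeq synonyms, leaving out 2 that pointed to other genes. The members, the lists and the rule for named genes were chosen with earlier results of these data known. That rule took all members, genes within 1 Mb at or above 1 RPKM, up to 3 genes at each end of each list, the 5 genes nearest to Xlr3c, Ahcy and Sycp3. Of the genes it takes, 1 is not reported here. Relatives and marker genes named outside it were picked with their values in view.

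The main measure was log2 of RPKM plus 1, T136A over WT. Fold intervals are exact conditional binomial (95%) from recovered reads, which were whole in both libraries for 10771 of 12320 genes (87.4%). They cover counting error only, since reads without molecular identifiers are not independent molecules. For the folds of genes with a count of 0 in WT, that count was set to 3 reads. No test was run, because each genotype had 1 library. Alternatives changed the added constant, scaling, minimum level, call rule and the way copies were summed. Python 3.11.15, numpy 2.4.6, pandas 2.3.3, scipy 1.17.1 and Biopython 1.88 were used, and the steps were tested on simulated data.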

Additional observations from a re-analysis of the deposited data

How the results depend on the processing

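Adding another constant, a minimum level or another call rule cannot turn the sign of a ratio, and the largest scaling factor was −0.15 on the log2 scale, so the directions of the members under these alternatives are no sign of stability. The added constant moved the sums most. With 0.1 RPKM added in place of 1, the log2 ratio was 3.54 for Xlr3 summed (3.20 with 1), 3.23 for Xlr4 (2.66), 6.26 for Xlr5 (3.44) and 3.73 for all 9 (3.49), and with 5 RPKM added it was 2.33, 1.59, 1.59 and 2.78. Summing recovered reads, scaled by library total, in place of RPKM gave 2.97, 3.04, 4.15 and 3.26, and upper quartile scaling moved Xlr5 to 3.58. With 5 RPKM added, 3 members (Xlr3a, Xlr3c and Xlr4a) were at least 2-fold higher, and with a minimum of 5 RPKM 4 were, all of which reached it in T136A alone and so had to be higher. Over single members the lowest log2 ratio under any alternative was 0.42, for Xlr4c with 5 RPKM added.

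Over all genes, 386 were at least 2-fold higher and 382 lower. These counts were 723 and 727 with 0.1 RPKM added, 101 and 114 with 5, and 209 higher with a minimum of 5 RPKM. Upper quartile scaling, which has that largest factor, gave 588 higher and 276 lower. The SYCP3-related list, with Xlr and Sycp3 its only genes above the minimum, had a median of 0.23. It was 0.86 with 0.1 RPKM added, 0.82 with upper quartile scaling, 1.52 without Sycp3, 0.09 with no minimum, −0.12 with 5 RPKM added and −1.06 with a minimum of 5 RPKM, where Sycp3 alone was left.

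No paired analysis was possible because each genotype had 1 library and the labels give no replicate numbers. Leaving out a library would leave no comparison. Depth limits Xlr4c and the 3 Xlr5 copies, with at most 2 reads each in WT, and the handling of reads shared between copies limits every single-copy value.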
